A study of Mus musculus with 12 samples.

Results

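The 6 genes described here encode the early growth response factors Egr1, Egr2 and Egr3 and the orphan nuclear receptors Nr4a1, Nr4a2 and Nr4a3. They were chosen by name from the 35275 gene identifiers of the count table, with earlier results of these data known. All 6 are described whatever their values, and all 6 passed the filter on low counts. The messenger RNA came from Th17 cells, the helper T cells that make interleukin-17, grown in culture from naive CD4+ T cells of wild-type mice. All 12 libraries shared 72 h of stimulation through plate-bound antibodies to CD3 and CD28, with TGF-B, IL-6 and antibodies blocking IFN-g and IL-4. For the last 4 h, the cells of 3 libraries were left untreated, and those of 3 libraries each received dexamethasone (Dex, a synthetic glucocorticoid), the cytokine IL-1B or both agents. Libraries are named by group and number, so that untreated 1 is replicate 1 of the untreated group. Whether the libraries of a group trace back to different mice or wells is not stated in the labels, so a p-value reflects the spread among these libraries alone, which may be technical.

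Both families are immediate early genes: antigen receptor signalling switches them on within minutes and without new protein synthesis. The EGR proteins are zinc-finger factors that bind GC-rich sites and are induced through the Ras-ERK pathway acting on serum response factor and its ternary complex partners. Egr2 and Egr3 are known in T cells for restraining activation, in part through diacylglycerol kinases and the ubiquitin ligase Cblb. The NR4A proteins are nuclear receptors that act without a known physiological ligand, are induced through calcium, calcineurin, MEF2 and cAMP signals, and are known in T cells for roles in tolerance, regulatory T cells and exhaustion.

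The deposited counts were scaled to CPM, the usual unit of counts relative to library size, here after TMM normalisation of the library sizes. Total counts ran from 16904106 to 30445734 per library, and the lowest raw count of any of the 6 genes in a library was 135, for Nr4a2. No gene of the GENCODE annotation of GRCm38, the source of the loci below, overlapped any of the 6 genes.

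The sequences just upstream of the start sites are shown because promoters of these families are known for signal-responsive elements. They come from the RefSeq promoter table for GRCm38.p6, which matched 4 of the 6 genes, are written 5′ to 3′ on the strand of the gene, and leave out annotated exon bases. For Egr2 the table held 5 start sites, and the one used (67537870) is also a transcript start in GENCODE and lies inside the annotated gene. The single start listed for Nr4a3 (48045305) is not a transcript start in GENCODE. Capitals mark the half-site of the cAMP response element (CRE), TGACG or CGTCA, and, in addition, the serum response element core (CArG box) of Egr2 and the MEF2 box of Nr4a2. The regions are chr10:67537620-67537868 (+) for Egr2, chr15:101266596-101266845 (+) for Nr4a1, chr2:57124004-57124253 (-) for Nr4a2 and chr4:48045055-48045152 (+) for Nr4a3.
Egr2: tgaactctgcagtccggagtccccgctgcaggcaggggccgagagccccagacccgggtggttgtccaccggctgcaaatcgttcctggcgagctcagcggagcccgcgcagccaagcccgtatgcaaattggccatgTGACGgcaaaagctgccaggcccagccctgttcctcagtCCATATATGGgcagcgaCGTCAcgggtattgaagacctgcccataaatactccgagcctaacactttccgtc
Nr4a1: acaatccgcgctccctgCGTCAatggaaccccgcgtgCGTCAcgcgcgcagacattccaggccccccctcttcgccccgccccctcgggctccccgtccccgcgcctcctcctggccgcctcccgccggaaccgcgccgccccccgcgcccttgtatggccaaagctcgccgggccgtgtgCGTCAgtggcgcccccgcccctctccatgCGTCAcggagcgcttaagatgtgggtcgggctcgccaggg
Nr4a2: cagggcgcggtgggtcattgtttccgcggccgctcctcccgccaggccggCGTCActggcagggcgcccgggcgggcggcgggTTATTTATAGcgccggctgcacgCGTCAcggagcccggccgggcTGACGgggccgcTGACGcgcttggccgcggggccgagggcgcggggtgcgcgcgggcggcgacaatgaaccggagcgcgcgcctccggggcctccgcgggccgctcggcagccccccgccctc
Nr4a3: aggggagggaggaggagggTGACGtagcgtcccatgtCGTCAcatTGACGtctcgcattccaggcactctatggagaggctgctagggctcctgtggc

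All 4 printed promoters held CRE half-sites. Searched on both strands over the full 250 bases before the start site, Egr2 had 2, and Nr4a1, Nr4a2 and Nr4a3 had 4 each, of which 3 are in the printed stretch of Nr4a3. Of 32851 windows of that length in the table, 17.8% held at least 1 half-site, 0.688% held at least 3 and 0.137% held at least 4. The CArG box of Egr2, at -73 to -64, had a match in 1.47% of windows, and the MEF2 box of Nr4a2, at -167 to -158, in 2.92%. The EGR site GCGNGGGCG was present once each in the windows of Nr4a1 and Nr4a2 and in 4.7% of all windows. No match to the full CRE TGACGTCA, to the NR4A monomer site AAAGGTCA, to the NF-kB site or to the palindromic glucocorticoid response element (AGAACA and TGTTCT with 3 bases between them) was present in these 4 windows. These are letter matches in the reference and do not show that a factor was bound.

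All 6 genes were expressed in every library. Per kilobase of exon, the order of mean levels in untreated cells was Nr4a1 at 43.8 ± 5.58 CPM per kb (SD, n = 3), Egr1 at 29.3 ± 3.28, Egr2 at 16.6 ± 2.50, Egr3 at 15.8 ± 1.40, Nr4a3 at 9.94 ± 0.869 and Nr4a2 at 3.98 ± 0.232. Egr2 and Egr3 therefore lay within their spread of each other. Nr4a1 and Egr1 kept the first and second places in all 4 groups, and Nr4a2 the last. In cells given both agents Nr4a3 (10.6 ± 0.736 CPM per kb) lay above Egr2 (8.06 ± 1.17) in every library, whereas in untreated cells it lay below (9.94 ± 0.869 against 16.6 ± 2.50). Its libraries overlapped those of Egr3 with Dex and those of Egr2 with IL-1B, so its place among them is not resolved there.

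**Figure D1:**
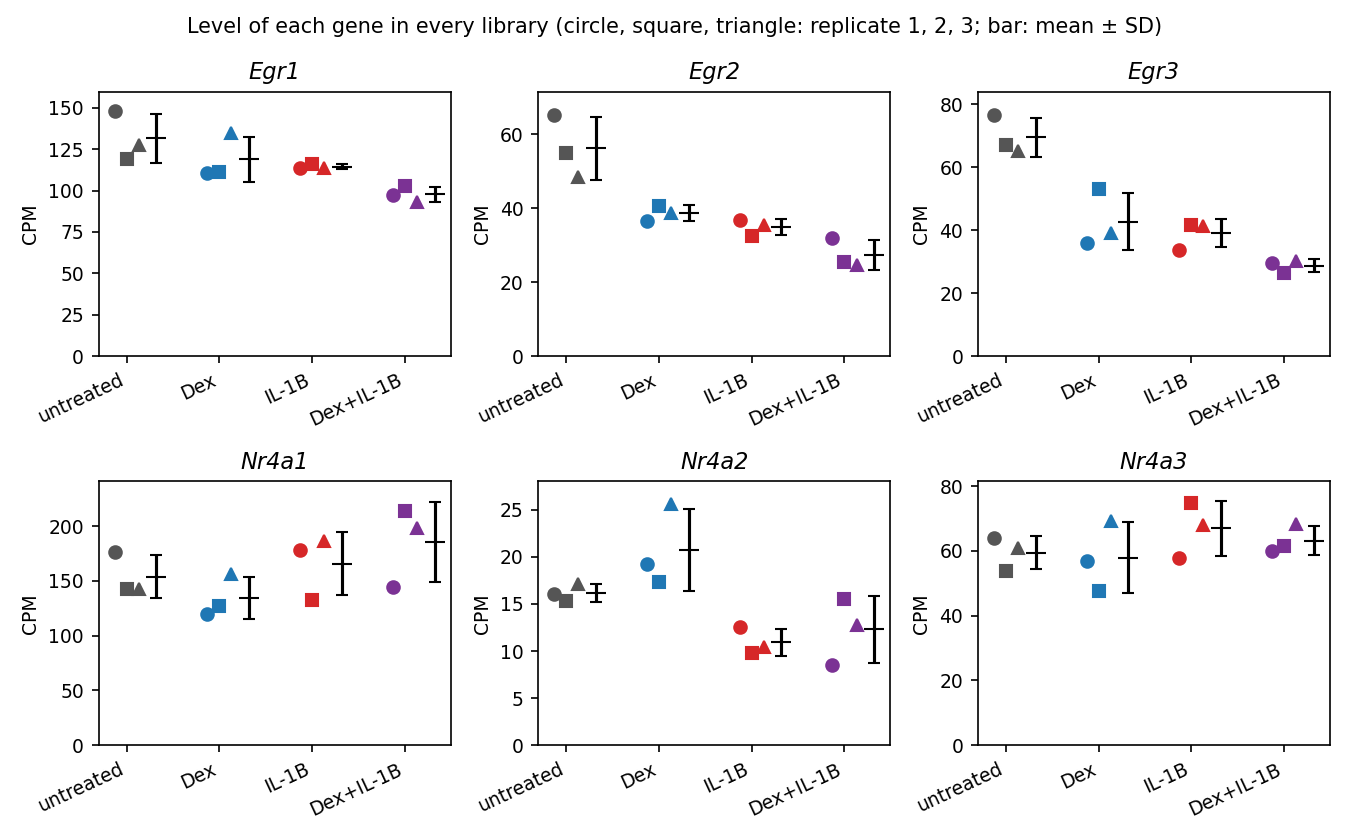
CPM of each gene (vertical axes, linear and starting at 0) in the 12 libraries, by group, with mean ± SD beside the points. For Egr2 and Egr3 the untreated libraries lie above all others and those given both agents below all others, with Dex and IL-1B overlapping between them. For Nr4a1 and Nr4a3 all groups overlap.

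The EGR genes were lowest in cells given both agents: against untreated cells Egr3 fell by 58.7%, Egr2 fell by 51.5% and Egr1 fell by 25.6%. The NR4A genes did not share a pattern: Nr4a2 was highest with Dex, Nr4a1 had its highest mean with both agents, and Nr4a3 did not pass the test in any comparison. Each comparison was tested over 13821 genes with edgeR's quasi-likelihood test, and a gene was called at a Benjamini-Hochberg adjusted p under 0.05. The 3 comparisons against untreated cells use the same untreated libraries, and those of the combination use the same combination libraries.

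Egr3 (ENSMUSG00000033730, chr14:70077203-70082614, +) had the largest falls of the 6 genes against untreated cells. Its level was 76.6, 66.9 and 65.1 CPM in untreated 1, 2 and 3, 35.9, 53.0 and 39.2 CPM with Dex, 33.8, 41.8 and 41.3 CPM with IL-1B, and 29.5, 26.4 and 30.3 CPM with both. Every treated library lay below every untreated one, and every library given both agents lay below every library given 1 agent. The log2 fold change against untreated was -0.70 ± 0.14 (SE) with Dex (adjusted p = 0.0350, edgeR), -0.84 ± 0.14 with IL-1B (adjusted p = 0.00133) and -1.28 ± 0.14 with both (adjusted p = 7.76e-05). The Dex and IL-1B libraries overlapped, so the order of these neighbours is not resolved. The call with Dex was lost without untreated 1 (adjusted p = 0.193), untreated 2 (0.114), Dex 1 (0.221), Dex 3 (0.233) or Dex+IL-1B 3 (0.0561), while the change stayed between -0.61 and -0.90 over 19 alternative settings.

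Egr2 (ENSMUSG00000037868, chr10:67535475-67542188, +) followed the same steps at smaller size. Its level was 65.4, 55.0 and 48.5 CPM in the untreated libraries, 36.5, 40.7 and 38.9 CPM with Dex, 36.7, 32.6 and 35.6 CPM with IL-1B, and 32.0, 25.6 and 24.7 CPM with both. The untreated libraries lay above all others, the Dex and IL-1B libraries overlapped, and those given both lay below all of these. Egr2 fell by 0.69 ± 0.12 on the log2 scale with IL-1B (adjusted p = 0.00209) and by 1.04 ± 0.12 with both (adjusted p = 0.000141). With Dex alone the log2 fold change was -0.54 ± 0.12, which did not pass the test in edgeR (adjusted p = 0.0779) and passed it in DESeq2 (adjusted p = 0.00618). It also passed without untreated 3 (adjusted p = 0.0404) or without Dex+IL-1B 1 (adjusted p = 0.0391).

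Egr1 (ENSMUSG00000038418, chr18:34859823-34864984, +), a factor induced by growth factors in many cell types, had the smallest change of the 3 EGR genes. Its level was 148, 119 and 127 CPM in the untreated libraries, 111, 111 and 135 CPM with Dex, 114, 116 and 114 CPM with IL-1B, and 97.4, 103 and 93.4 CPM with both. The 3 libraries given both agents lay below the other 9, and the untreated and Dex libraries overlapped. Egr1 fell by 0.43 ± 0.10 on the log2 scale with both agents (adjusted p = 0.00918, edgeR). With Dex alone the log2 fold change was -0.15 ± 0.10 (adjusted p = 0.699), and with IL-1B alone it was -0.20 ± 0.10 (adjusted p = 0.168).

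Nr4a1 (ENSMUSG00000023034, chr15:101254269-101274795, +), which encodes Nur77, was the most abundant of the 6 genes per kilobase and spread widely within groups. Its level was 176, 143 and 142 CPM in the untreated libraries, 120.2, 127 and 156 CPM with Dex, 178, 133 and 186 CPM with IL-1B, and 144, 214 and 198 CPM with both. All 4 groups overlapped. Its log2 fold change was -0.19 ± 0.16 with Dex (adjusted p = 0.787), 0.11 ± 0.16 with IL-1B (adjusted p = 0.688) and 0.27 ± 0.16 with both (adjusted p = 0.286).

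Nr4a2 (ENSMUSG00000026826, chr2:57106830-57124003, -), which encodes Nurr1, was the least abundant per kilobase. Its level was 16.0, 15.3 and 17.1 CPM in the untreated libraries, 19.2, 17.3 and 25.6 CPM with Dex, 12.5, 9.78 and 10.5 CPM with IL-1B, and 8.51, 15.6 and 12.8 CPM with both. The Dex libraries lay above all others and the IL-1B libraries below all untreated ones, while those given both overlapped with untreated and IL-1B. Against untreated the log2 fold change was 0.36 ± 0.19 with Dex (adjusted p = 0.584), -0.56 ± 0.20 with IL-1B (adjusted p = 0.0574) and -0.38 ± 0.19 with both (adjusted p = 0.195), so none of the 3 passed the test in edgeR. The value with IL-1B passed in 5 of the 19 alternative settings: in DESeq2 (adjusted p = 0.0339), without a low-count filter (0.0432), in a fit to the IL-1B and untreated libraries only (0.0234), without Dex+IL-1B 1 (0.0202) and without Dex+IL-1B 2 (0.0423).

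Nr4a3 (ENSMUSG00000028341, chr4:48045153-48086447, +), which encodes Nor1, had no call in any comparison. Its level was 63.8, 53.7 and 60.9 CPM in the untreated libraries, 57.0, 47.5 and 69.2 CPM with Dex, 57.9, 74.9 and 68.0 CPM with IL-1B, and 59.98, 61.4 and 68.2 CPM with both. All groups overlapped. Its 95% intervals of the log2 fold change against untreated were -0.32 to 0.25 with Dex, -0.11 to 0.45 with IL-1B and -0.19 to 0.37 with both.

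**Figure D2:**
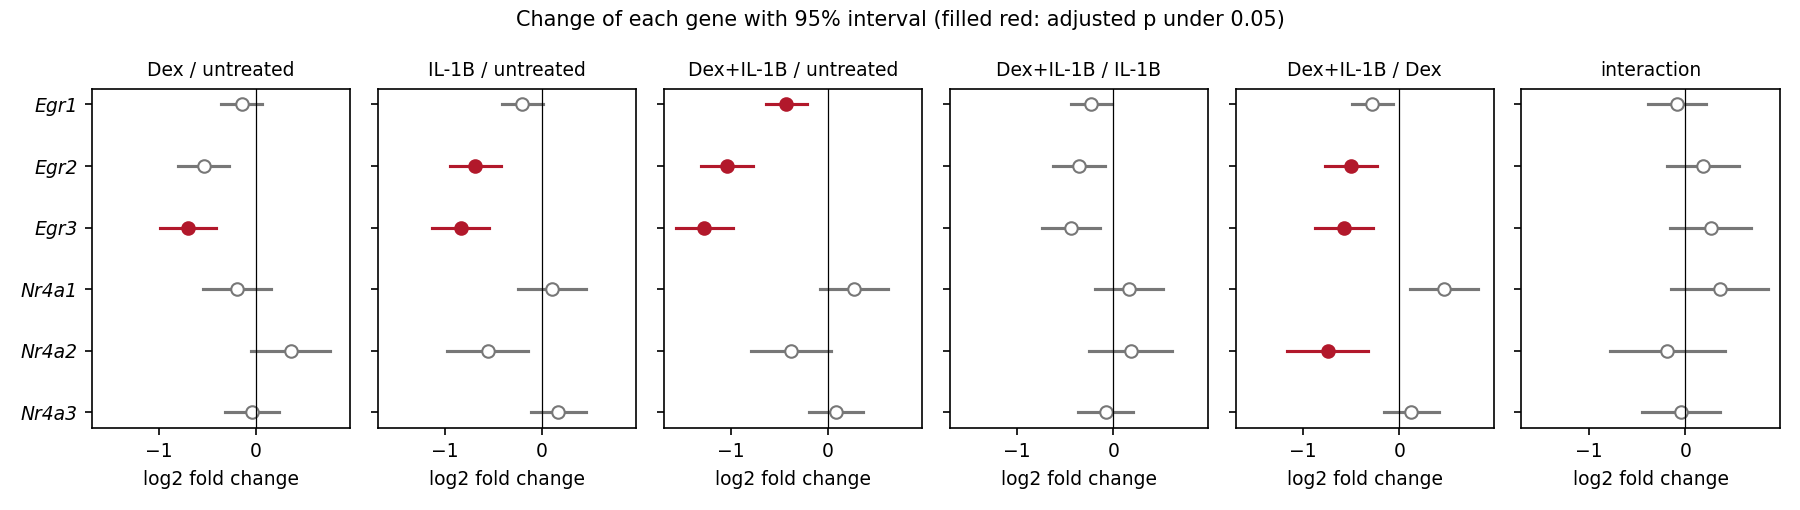
Log2 fold change of each gene (points) with 95% intervals (lines) in 5 comparisons and in the interaction of Dex and IL-1B, filled red where the adjusted p was under 0.05. The called changes all lie left of 0 and, apart from Nr4a2 in Dex+IL-1B against Dex, belong to the EGR genes.

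Counted by comparison, Dex alone gave 1 call among the 6 genes, a fall of Egr3, where 0.166% of all genes tested were called lower. IL-1B alone gave 2 falls, of Egr2 and Egr3, where 9.51% of all genes were called lower, and both agents gave falls of all 3 EGR genes, where 7.82% were called lower. None of the 6 genes was called higher in any comparison, in which 0.369%, 11.9% and 10.3% of all genes were called higher with Dex, IL-1B and both. At an unadjusted p under 0.05, 2, 3 and 3 of the 6 genes passed in these comparisons. Of all 13821 genes, fewer than 1845 passed it with Dex, from 3145 to under 5191 with IL-1B, and fewer than 4978 with both. DESeq2 called 2, 3 and 3 of the 6 genes, beside 2.14%, 23.8% and 23% of all genes it tested. The median log2 fold change of the 6 genes was -0.17, -0.38 and -0.40 with Dex, IL-1B and both, beside -0.00049, -0.0036 and 0.0042 over all genes. Groups did not overlap in the lower direction for Egr2 and Egr3 with Dex (8.85% of all genes), and in the higher direction for Nr4a2 (9.76%). With IL-1B they did not overlap for 4 members, all lower (18.9% of genes), and with both agents for the 3 EGR genes, all lower (18.5%). The falls of Egr2 and Egr3 with IL-1B, and of all 3 EGR genes with both agents, were called in each of the 19 alternative settings.

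Adding IL-1B to Dex lowered Egr2, Egr3 and Nr4a2. Against cells given Dex alone, the log2 fold change was -0.57 ± 0.14 for Egr3 (adjusted p = 0.0148, edgeR), -0.50 ± 0.12 for Egr2 (adjusted p = 0.0162) and -0.74 ± 0.19 for Nr4a2 (adjusted p = 0.0216). These 3 calls stand where 4.98% of all genes were called lower and 8.60% higher. Egr1 was lower in every library given both (log2 fold change -0.28 ± 0.10, adjusted p = 0.0764), and groups did not overlap in this direction for 18.0% of genes. Nr4a1 went the other way (0.46 ± 0.16, adjusted p = 0.0796), with groups that overlapped. At an unadjusted p under 0.05, 5 of the 6 genes passed, as did at least 2444 of all 13821 genes. The calls depended on single libraries. Egr3 was not called without Dex 2 (adjusted p = 0.0750), nor was Egr2 without Dex 2 (0.0680) and without replicate 2 (0.0519) or 3 (0.0773) of the combination, and Nr4a2 lost its call without Dex 3 (0.109) and without replicate 1 (0.0830) or 3 (0.0637) of the combination. The Nr4a2 call was also lost in a fit to only the libraries compared (adjusted p = 0.0573).

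Adding Dex to IL-1B gave no call among the 6 genes in edgeR and none in DESeq2. In this comparison 0.0289% of all genes were called lower and 0.246% higher. At an unadjusted p under 0.05, 3 of the 6 genes passed, as did at least 713 of all 13821 genes. The 3 EGR genes were nevertheless lower in each library given both than in each given IL-1B, which was the case for 4.97% of genes. Their log2 fold changes were -0.44 for Egr3 (95% interval -0.74 to -0.14, adjusted p = 0.474), -0.35 for Egr2 (-0.62 to -0.09, adjusted p = 0.575) and -0.23 for Egr1 (-0.44 to -0.02, adjusted p = 0.718). Those of Nr4a1, Nr4a2 and Nr4a3 were 0.16, 0.18 and -0.08, with groups that overlapped.

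The interaction asks whether the effect of both agents differed from the sum of the single effects on the log2 scale. It was 0.26 for Egr3 (95% interval -0.15 to 0.68), 0.19 for Egr2 (-0.19 to 0.56), -0.08 for Egr1 (-0.38 to 0.22), 0.36 for Nr4a1 (-0.14 to 0.86), -0.18 for Nr4a2 (-0.78 to 0.41) and -0.04 for Nr4a3 (-0.45 to 0.36). None was called, and none passed at an unadjusted p under 0.05. edgeR called 0 of 13821 genes in this test (0% of all genes) and DESeq2 called 1. For Egr3 the single effects summed to -1.54 beside -1.28 measured with both agents, and for Egr2 to -1.23 beside -1.04. The widest interval was that of Nr4a2.

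The balance between the families moved with treatment. The summed level of Egr1, Egr2 and Egr3 was 290, 241 and 241 CPM in untreated 1, 2 and 3 and 159, 155 and 148 CPM in cells given both, with Dex at 183, 205 and 213 CPM and IL-1B at 184, 190.4 and 191 CPM. The summed level of the 3 NR4A genes ran from 212 to 256 CPM in untreated cells and from 213 to 291 CPM with both. The EGR genes thus made up 52.3% to 53.3% of the summed CPM of the 6 genes in untreated cells, 45.9% to 51.7% with Dex, 41.9% to 46.7% with IL-1B and 34.7% to 42.8% with both. The share in each treated library was below that in each untreated one. The highest share with IL-1B was that of IL-1B 2 (46.7%). With both agents it was that of Dex+IL-1B 1 (42.8%), against 34.7% in each of Dex+IL-1B 2 and 3. IL-1B 2 and Dex+IL-1B 1 stood apart in another way, described below. In bulk RNA, fewer cells with a transcript and less of it per cell cannot be told apart.

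**Figure D3:**
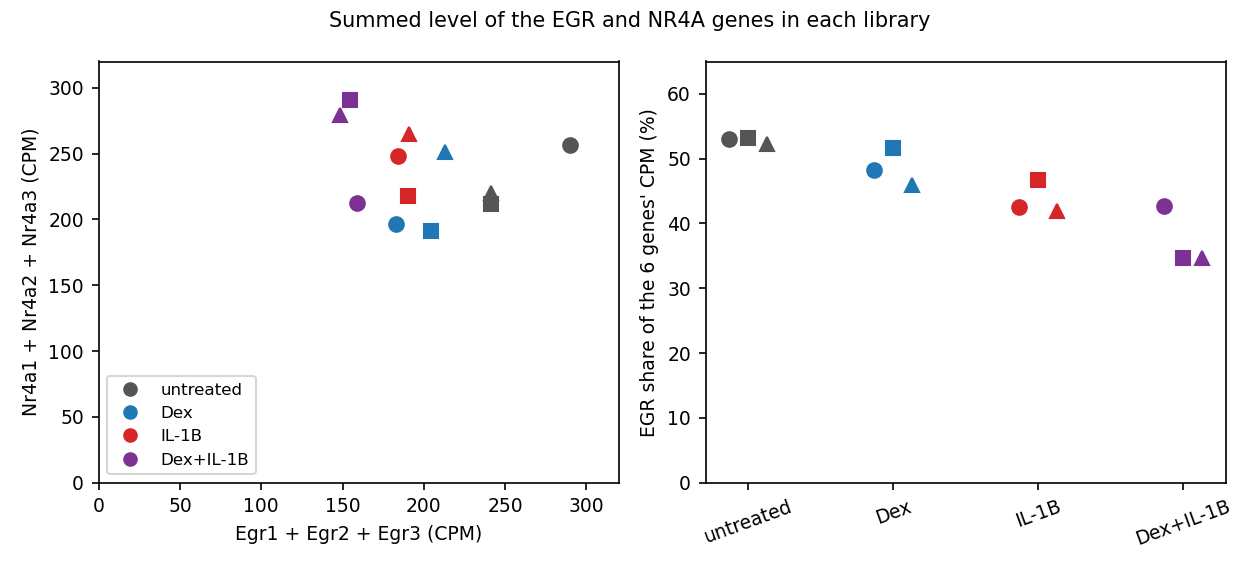
Left, summed CPM of the NR4A genes against that of the EGR genes in each library (circle, square and triangle for replicates 1, 2 and 3). Right, the EGR share of the 6 genes' CPM in percent, which falls from 52.3% to 53.3% in untreated libraries to 34.7% to 42.8% with both agents. The value of 42.8% is that of Dex+IL-1B 1.

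Some libraries stood apart in ways the groups do not give. The summed level of 3 genes that overlap ribosomal RNA sequence (Gm42418, Gm26917 and Lars2) was 14036 CPM in IL-1B 2 and 18550 CPM in Dex+IL-1B 1, against 2328 to 5644 CPM in the other 10 libraries. Nr4a1 and Nr4a2 were at their lowest within the group in both of these libraries. Without the pair, Nr4a1 was called higher with both agents than with Dex alone (log2 fold change 0.63, adjusted p = 0.00546, against 0.46 and 0.0796 with them) and than in untreated cells (0.43, adjusted p = 0.0253). Leaving out the single library Dex+IL-1B 1 also gave a call for Nr4a1 against Dex (0.63, adjusted p = 0.0303), as did leaving out IL-1B 2 (0.46, adjusted p = 0.0451) and DESeq2 on all libraries (0.46, adjusted p = 0.0426). For Nr4a2 against Dex the change was -0.54 without the pair (adjusted p = 0.0406). The part of these sequences in the NR4A values was not tested.

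**Figure D4:**
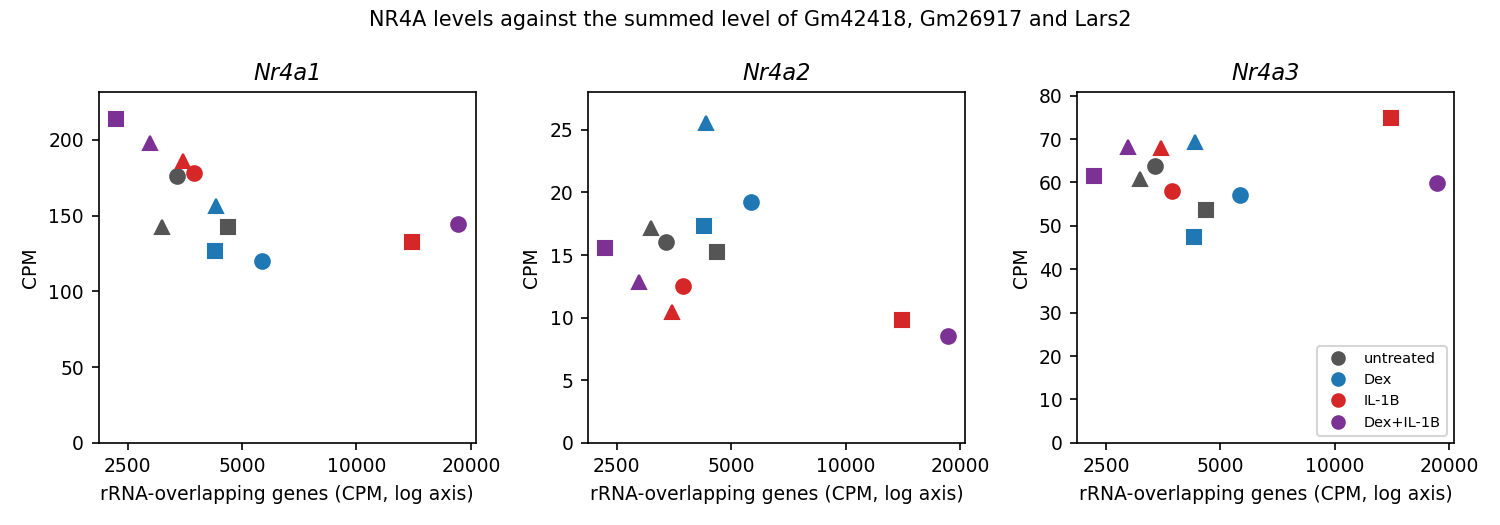
CPM of the NR4A genes (vertical axes) against the summed CPM of Gm42418, Gm26917 and Lars2 (horizontal axes, log scale) in the 12 libraries. The libraries IL-1B 2 (red square) and Dex+IL-1B 1 (purple circle) lie to the right, at 14036 and 18550 CPM, and are the lowest of their groups for Nr4a1 and Nr4a2. For Nr4a3, IL-1B 2 is the highest of its group.

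The cells carried the transcripts of their label: all 12 markers of Th17 and CD4+ T cells were detected in each library, summing to 2425 to 3318 CPM. All 9 B cell markers were also detected, at 290 CPM in untreated 1, 172 to 190 CPM in untreated 2 and 3, and 137 to 190 CPM in the 9 treated libraries. The 10 myeloid and dendritic markers summed to 2.40 to 5.78 CPM, and the 9 CD8+ T and NK markers to 15.6 to 20.1 CPM. Of the myeloid markers, Adgre1 was at 0 in all but 1 library and Lyz2 at 0 in all treated libraries. Cd68 (2.02 to 3.58 CPM) and Itgam were detected in every library, and Itgam was highest in untreated 1 (3.32 CPM). Egr1, Egr2, Egr3 and the summed B cell markers were highest in untreated 1, although single markers such as Ebf1 (6.69 CPM there, up to 14.9 CPM in IL-1B 2) were not. Without that library, Egr3 still fell with IL-1B (-0.77, adjusted p = 0.00649) and with both (-1.21, adjusted p = 0.000426), as did Egr2 (-0.57, adjusted p = 0.00872, and -0.93, adjusted p = 0.000570) and, with both, Egr1 (-0.34, adjusted p = 0.0433).

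Of the partners and corepressors of both families, Rxra was the only gene called against untreated cells. Nab1 and Nab2, corepressors that bind EGR proteins, were at 89.1 ± 11.8 and 82.2 ± 1.66 CPM in untreated cells and 82.1 ± 2.77 and 64.7 ± 2.99 CPM with both agents. Neither was called in any comparison, nor was Egr4, a family member at under 2 CPM in every library, and the fourth gene of the list, Wt1, was not detected. edgeR and DESeq2 both called 0 of the 3 tested genes in each of the 5 comparisons between groups. An unadjusted p under 0.05 was reached by 1 with Dex, as by fewer than 1845 of all 13821 genes, and by 0 in the other 4. Of the retinoid X receptors, which pair with Nr4a1 and Nr4a2, Rxra was higher with IL-1B (0.54 ± 0.13, adjusted p = 0.00998), a call lost without untreated 1 or untreated 2 (adjusted p up to 0.0628). Rxrb did not pass in any comparison (110 to 122 CPM in group means).

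Among the regulators upstream of the EGR genes, the ternary complex factor Elk3 and the calcineurin-controlled factor Nfatc1 fell. Elk3, which binds DNA beside serum response factor, was at 194, 172 and 165 CPM in untreated cells, 135, 152 and 138 CPM with Dex, 143, 135 and 136 CPM with IL-1B, and 114, 113 and 114 CPM with both. Every treated library lay below every untreated one. It fell by 0.36 ± 0.08 on the log2 scale with IL-1B (adjusted p = 0.00718) and by 0.64 ± 0.08 with both (adjusted p = 0.000242), and was at -0.32 ± 0.08 with Dex (adjusted p = 0.128). Of the 6 genes of this list, IL-1B lowered 2 (Elk3, and Mrtfa by 0.46 ± 0.09, adjusted p = 0.00420), both agents lowered 1 and none was called higher, where 9.51% and 7.82% of all genes were called lower; Srf itself was not called (98.3 ± 13.1 CPM in untreated cells and 104 ± 21.5 with both).

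Nfatc1, a transcription factor that enters the nucleus when calcineurin is active, was at 298, 251 and 238 CPM in untreated cells, 170.2, 228 and 193 CPM with Dex, 147, 161 and 172 CPM with IL-1B, and 150.1, 148 and 147 CPM with both. The IL-1B libraries and those given both lay below all untreated ones, and by the test Nfatc1 fell by 0.71 ± 0.11 (adjusted p = 0.00114) and 0.82 ± 0.11 (adjusted p = 0.000416). Of the 13 tested genes of the calcineurin, NFAT and MEF2 list, IL-1B lowered 2 and raised 1, and both agents lowered 2. Of the 14 genes of the ERK cascade, IL-1B lowered 2 and raised 1, and both lowered 3 and raised 1. Over all genes, 9.51% were called lower and 11.9% higher with IL-1B, and 7.82% lower and 10.3% higher with both, so the IL-1B counts of these lists are near the background. The smallest adjusted p in that list was for Mapk3, which encodes the kinase ERK1 (-0.51 ± 0.13 with IL-1B, adjusted p = 0.0157, lost without untreated 2, where it was 0.0634).

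Of the 8 CREB-related genes, only Crtc2, a coactivator of CREB, was called when IL-1B was added to Dex. Crtc2 rose (0.61 ± 0.12, adjusted p = 0.00514) where 8.60% of all genes were called higher. It was at 77.4, 89.3 and 86.4 CPM with Dex and 121, 134 and 133 CPM with both, with no overlap. Its call with IL-1B alone (0.36 ± 0.12, adjusted p = 0.0476) was lost in 14 of the 19 settings. With both agents against untreated cells, Crtc2 was called higher (adjusted p = 0.00887) and the coactivator Ep300 lower (-0.39 ± 0.12, adjusted p = 0.0351). Of all genes, 10.3% were called higher and 7.82% lower there. The Ep300 call was lost in 5 of the 19 settings, and that of Crtc2 without untreated 2. With Dex alone edgeR called 0 genes of these upstream lists. An unadjusted p under 0.05 was reached by 3 ERK cascade, 2 SRF, 3 calcineurin and 1 CREB genes, and by fewer than 1845 of all 13821 genes. DESeq2 called 1 SRF and 1 calcineurin gene lower, where it called 2.14% of all genes.

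Of 25 other immediate early genes, 2 rose and 4 fell with IL-1B, at a list median of 0.05, where 11.9% of all genes were called higher and 9.51% lower. With both agents 5 rose and 6 fell, at a median of 0.13, where 10.3% of all genes were called higher and 7.82% lower. Over the settings, the rises numbered 1 to 3 with IL-1B and 2 to 8 with both, and the falls 3 to 5 and 4 to 6. The growth arrest gene Gadd45b rose most, from 8.35, 5.87 and 7.18 CPM in untreated cells to 38.9, 26.4 and 40.3 CPM with IL-1B and 29.8, 34.9 and 44.4 CPM with both (2.31 ± 0.20, adjusted p = 2.04e-05, and 2.36 ± 0.20, adjusted p = 1.41e-05). Fos, the AP-1 subunit, fell by 1.43 ± 0.19 with IL-1B (adjusted p = 0.000525) and by 0.81 ± 0.18 with both (adjusted p = 0.00857), from 9.72 ± 1.98 to 3.60 ± 0.768 and 5.53 ± 0.312 CPM. Dusp6, the phosphatase that inactivates ERK and is itself induced by it, was at 86.1, 66.3 and 62.4 CPM in untreated cells, 41.3, 35.2 and 41.2 CPM with IL-1B and 43.4, 34.9 and 36.5 CPM with both. It fell by 0.87 ± 0.13 (adjusted p = 0.000959) and 0.91 ± 0.13 (adjusted p = 0.000624), and was at -0.61 ± 0.13 with Dex (adjusted p = 0.0611). Myc rose with both agents, by 0.72 ± 0.14 (adjusted p = 0.00358).

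Dex by itself lowered 1 of these 25 genes, Ier5 (-0.60 ± 0.10, adjusted p = 0.0172, edgeR), at 99.9, 86.9 and 84.7 CPM in untreated cells and 57.1, 61.2 and 61.2 CPM with Dex. Leaving out Dex 1, Dex 3, untreated 1 or untreated 2 each ended that call (adjusted p up to 0.145). With Dex, 12 of the 25 genes had an unadjusted p under 0.05, as had fewer than 1845 of all 13821 genes. Over the settings, 0 to 3 of the 25 were called lower and 0 to 1 higher. Of all genes, 0.166% were called lower and 0.369% higher with Dex at an adjusted p under 0.05. Ier5 was higher with both than with Dex (0.45 ± 0.10, adjusted p = 0.0100), a call kept in all 19 settings. The only call of the list when Dex was added to IL-1B was the phosphatase Dusp2, which rose from 118, 111 and 118 to 174, 184 and 178 CPM (0.62 ± 0.10, adjusted p = 0.0138). Leaving out IL-1B 1 or 3, or Dex+IL-1B 2 or 3, each ended the call (adjusted p up to 0.0982). Of all genes, 0.246% were called higher when Dex was added to IL-1B.

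Of 15 tested genes reported elsewhere as targets of Egr2 and Egr3 in T cells, 6 fell and none rose with IL-1B, and 6 fell and none rose with both agents. Over all genes, 9.51% were called lower with IL-1B and 7.82% with both. When IL-1B was added to Dex, 3 of the 15 fell and 1, the transcriptional inhibitor Id3, rose (0.68 ± 0.16, adjusted p = 0.0122). The Id3 call was lost without Dex 1, Dex 3 or replicate 3 of the combination (adjusted p up to 0.0553). In this comparison the falls numbered 0 to 4 and the rises 0 to 1 over the settings. Of all genes, 4.98% were called lower and 8.60% higher there. Against untreated cells, the falls numbered 5 to 7 of 15 over the alternative settings in each comparison. The list median was -0.28 and -0.35, beside -0.0036 and 0.0042 over all genes. The diacylglycerol kinase Dgka, which removes the lipid messenger that activates Ras, was at 741, 671 and 570.0 CPM in untreated cells, 502, 694 and 484 CPM with Dex, 367, 421 and 376 CPM with IL-1B, and 389, 388 and 395 CPM with both. All libraries with IL-1B lay below all untreated ones, and Dgka fell by 0.77 ± 0.13 (adjusted p = 0.00177) and 0.76 ± 0.13 (adjusted p = 0.00197).

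The inhibitory receptor Lag3 was at 198, 189 and 164 CPM in untreated cells, 124, 125 and 125 CPM with IL-1B, and 125, 121 and 121 CPM with both. It fell by 0.56 ± 0.09 (adjusted p = 0.00154) and 0.59 ± 0.09 (adjusted p = 0.00111). Dgkz, the second diacylglycerol kinase, fell by 0.65 ± 0.12 with both agents (adjusted p = 0.00234), and Cblb fell by 0.78 ± 0.16 with IL-1B (adjusted p = 0.00480). The death ligand Fasl fell by 2.71 ± 0.56 with IL-1B (adjusted p = 0.00451) at a low level, from 1.44 ± 0.472 to 0.216 ± 0.0382 CPM. With Dex alone 0 of the 15 genes passed in edgeR, and DESeq2 called 1, where it called 2.14% of all genes. An unadjusted p under 0.05 was reached by 6 of the 15 and by fewer than 1845 of all 13821 genes.

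Of the 11 tested genes linked to NR4A factors in T cells, 3 fell with IL-1B and 3 with both agents, and none rose, where 9.51% and 7.82% of all genes were called lower. Lag3 is on both lists. Pdcd1, which encodes the inhibitory receptor PD-1, was at 71.6, 65.8 and 56.1 CPM in untreated cells, 48.6, 62.0 and 46.8 CPM with Dex, 39.4, 23.9 and 36.3 CPM with IL-1B, and 38.3, 30.1 and 31.8 CPM with both. It fell by 0.96 ± 0.17 (adjusted p = 0.00245) and 0.95 ± 0.17 (adjusted p = 0.00265). Bcl2l11, which encodes the cell death protein BIM, fell by 1.22 ± 0.23 with IL-1B (adjusted p = 0.00329). The list median was -0.32 with IL-1B and -0.02 with both. With Dex alone 0 of the 11 passed in edgeR, and DESeq2 called 1, where it called 2.14% of all genes. An unadjusted p under 0.05 was reached by 3 of the 11 and by fewer than 1845 of all 13821 genes.

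**Figure D5:**
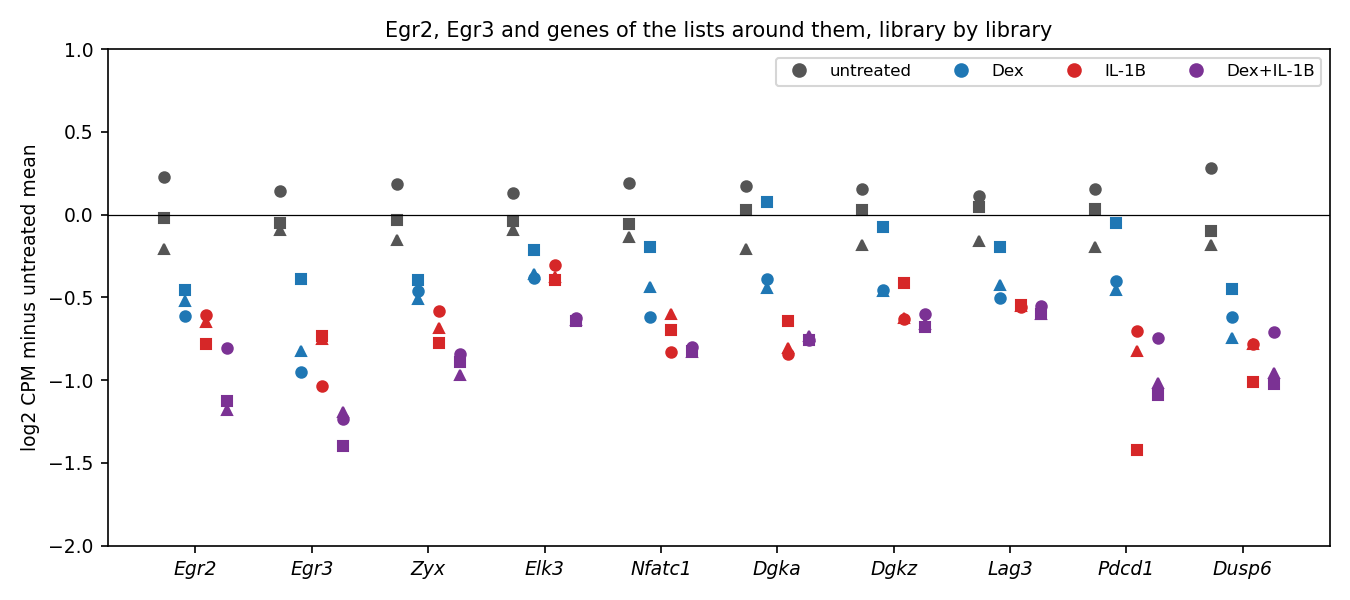
Log2 CPM of each library minus the untreated mean (vertical axis) for Egr2, Egr3 and 8 genes of the lists and of the genes nearest to Egr2 (circle, square and triangle for replicates 1, 2 and 3). The libraries with IL-1B (red and purple) lie below all untreated ones (grey) for each of these genes. Over all genes, this was so for 18.9% with IL-1B and 18.5% with both agents. The 8 genes were named for a small adjusted p or a high r in these same libraries. Their shared fall is therefore no separate evidence, and genes of the lists that rose, such as Gadd45b, are not drawn.

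The genes whose level across the 12 libraries was most like each member were ranked by Pearson's r of log2 CPM among 9536 genes, as a description over libraries that share their treatments. For Egr2 they were Zyx (r = 0.978), Mical1 (0.971) and Elk3 (0.969), and for Egr3 they were Angptl2 (0.978), Tgtp1 (0.975) and Glrx (0.965). Zyx encodes zyxin, a protein of focal adhesions, and Mical1 an enzyme that oxidises actin. Zyx was at 167, 144 and 132 CPM in untreated cells, 107, 112 and 103 CPM with Dex, 98.5, 86.1 and 91.4 CPM with IL-1B, and 82.0, 79.3 and 75.1 CPM with both, 4 levels with no overlap. Egr2 and Egr3 themselves had r = 0.928, and Egr1 had r = 0.830 with Egr2 and 0.762 with Egr3. Once the group means were removed, r was 0.335 for Egr2 with Egr3. It was then 0.341 for Egr1 with Egr2 and -0.015 for Egr1 with Egr3.

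The genes most like Egr1 were Cstf3 (r = 0.889), Slc17a6 (0.861) and Pigz (0.858). Those most like Nr4a1 were Tmem199 (0.932) and Ivns1abp (0.928), like Nr4a2 Adamts6 (0.966), Rtl5 (0.963) and Ssbp2 (0.961), and like Nr4a3 Ndufaf1 (0.892), Lrrc20 (0.836) and Ddhd1 (0.820). No member was among the 3 genes most like another. Nr4a1 and Nr4a2 had r = -0.15 over all libraries but r = 0.781 once the group means were removed.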

How the data were processed

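Messenger RNA was sequenced from 12 libraries in 4 groups of 3, after poly-T selection per the labels' protocols. Raw counts of reads in each gene were deposited by the authors as a single table, and 0 of its 12 columns went unused. The submitters' processing notes name HTSeq 0.6.1, STAR 2.7.0a and DESeq2 as tools and list mm10 and GRCm38 as builds. The strand setting is not given in the sources used here. The table held 35275 identifiers, of which 34490 matched a symbol, and 0 lines that named no gene.

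From these counts, genes were kept by edgeR's filter (13821, the rest holding 0.0562% of counts), scaled by TMM and fitted with a robust quasi-likelihood model over the 4 groups (edgeR 4.0.16 in R 4.3.3, 8 residual degrees of freedom). Benjamini-Hochberg adjusted p-values run over all genes of a contrast and are edgeR's where no tool is named; n = 3 in each group. CPM values are given ± SD and log2 fold changes ± SE. Counting intervals are not given, since PCR reads are not independent molecules.

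The members, lists and alternatives were chosen with earlier results of these data known. Besides the members, genes are named by rule: up to 4 of each list with the smallest adjusted p in the contrast described and at least 4 reads in each group, and for each member the 3 genes of at least 5 CPM with the highest r of log2 CPM (prior count 2). Some genes that this rule or the marker lists name are not reported here. Gene lists came from general knowledge of T cells. Nab1, Nab2, Egr4, Wt1, Rxrb and Srf are given in addition as members of short lists. The scripts were tested on simulated data with known changes. Alternatives were median-ratio scaling, DESeq2 1.42.0, 2 other filters, a block for replicate number, a fit to only those groups being compared, removal of a pair of libraries, and removal of each of the 12 libraries by itself.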

Additional observations from a re-analysis of the deposited data

How the results depend on the processing

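Over 19 alternative settings, 634 of 678 values of the 6 genes kept their direction and their side of the threshold, 15 newly passed it, 15 no longer passed it, and 14 values, none of them called, changed sign. With Dex alone the number of members called was 2 in DESeq2, without a low-count filter and without the pair of libraries high in rRNA-overlapping genes, and 0 in the fit to only the groups compared and with the replicate block (Egr3 adjusted p = 0.118 and 0.0603). Leaving out 1 library at a time gave 0 to 2 calls with Dex and 1 to 4 for both against Dex. The cause was not tested. The labels do not say whether same-numbered libraries belong together. Such libraries deviated from their group means with correlations of -0.214 to 0.184, which with 3 libraries per group cannot exclude a pairing. The replicate block changed no other member call. Among the sign changes, leaving out the rRNA-high pair gave 0.042 for Nr4a3 with both against IL-1B and 0.079 for its interaction. Leaving out 1 library at a time gave -0.17 to 0.030 for the interaction of Egr1, -0.38 to 0.034 for that of Nr4a2, -0.16 to 0.12 for that of Nr4a3, -0.028 to 0.39 for Nr4a2 and -0.17 to 0.0060 for Nr4a3 with both against IL-1B, and -0.20 to 0.078 for Nr4a3 with Dex. Over all genes, calls with Dex numbered 74 in edgeR, 269 in DESeq2, 138 without a filter, 257 without the pair and 16 to 257 with 1 library left out, lowest without untreated 1 or Dex 3. Calls for both against IL-1B numbered 38, with 95 in DESeq2, 18 in the fit to the groups compared, 57 without the pair and 17 to 46 with 1 library left out.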
